A study of Mus musculus with 16 samples.

Results

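The miR-34 and miR-449 family on this array was made up of 6 mature mouse miRNAs, mmu-miR-34a, mmu-miR-34b-3p, mmu-miR-34b-5p, mmu-miR-34c, mmu-miR-34c* and mmu-miR-449a, taken by name out of the 611 mouse miRNAs with probes. They were measured in primary mouse embryonic fibroblasts (MEFs) on 16 one-color Agilent miRNA microarrays. The cells were Ercc1-/- or wild-type (WT), were harvested at passage 7 (P7) or passage 3 (P3), and were kept at 20% or 3% O2, which gave 8 groups of 2 arrays each: Ercc1-/- P7 20% O2, Ercc1-/- P7 3% O2, Ercc1-/- P3 20% O2, Ercc1-/- P3 3% O2, and WT MEFs in the same 4 conditions. All embryos had a mixed FVB/n and C57Bl/6 background, and the WT lines came from littermates of the mutants. ERCC1 is a subunit of an endonuclease that repairs several kinds of DNA damage, and 20% O2 is an oxidative stress for MEFs, so the comparisons addressed how the family's levels varied with DNA repair deficiency, culture age and oxygen. The methods describe 2 independent cell lines per sample type and parallel cultures of the same cells at both oxygen levels. The labels do not say which line an array came from, and the array carries no probe for Ercc1 mRNA, so loss of the targeted gene was not checked here.

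miR-34 genes are direct transcriptional targets of the tumor suppressor p53. In many cell types their miRNAs rise after DNA damage and in senescence, and they repress genes that drive the cell cycle and survival. A miRNA finds its targets mainly through its seed, the stretch near the 5′ end, and the miR-449 miRNAs share the seed of the 5′ arm miR-34 miRNAs but are best known from multiciliated epithelia. The 3′ arm products miR-34b-3p and miR-34c* come off the other side of the miR-34b and miR-34c hairpins and carry a different seed.

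The mature sequences, from RefSeq's annotation of mouse assembly GRCm38.p6, are shown because the seed splits the family into the groups used here. They are given 5′ to 3′, with the seed (bases 2 to 8) in capitals, and 5 of the 6 members had an entry. The first 3 share one seed, which miR-449c also carries there, and the last 2 share another.
mmu-miR-34a: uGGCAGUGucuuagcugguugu
mmu-miR-34b-5p: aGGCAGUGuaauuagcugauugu
mmu-miR-449a: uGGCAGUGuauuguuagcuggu
mmu-miR-34b-3p: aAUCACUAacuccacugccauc
mmu-miR-34c* (named miR-34c-3p in RefSeq): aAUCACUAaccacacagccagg
The remaining member is mmu-miR-34c. Aligned from the first base without gaps, miR-34a and miR-449a matched at 15 of 22 positions and miR-34a and miR-34b-5p at 11 of 22, while the 3′ arm products miR-34b-3p and miR-34c* matched at 17 of 22.

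The family lies at 3 loci (GRCm38.p6). Mir34a is on the plus strand of chromosome 4, where the mature miR-34a spans chr4:150068473-150068494. Mir34b (chr9:51103562-51103645) and Mir34c (chr9:51103034-51103110) are on the minus strand of chromosome 9 with 451 bases between them, inside the annotated spans of Btg4 and Hoatz. Mature miR-34b-5p spans chr9:51103610-51103632, miR-34b-3p chr9:51103574-51103595 and miR-34c* chr9:51103044-51103065. Mir449a (chr13:113037534-113037624) lies on the plus strand of chromosome 13 inside the span of Cdc20b, next to Mir449b and Mir449c, with mature miR-449a at chr13:113037549-113037570. The annotation table used does not give exons and introns.

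Per array, 117 to 257 of the 611 mouse miRNAs were above background and 57 were above it on all 16 arrays, and before scaling the mean log2 signal of those 57 was 9.17 on slide 1 and 7.55 on slide 2. Each replicate number had its own slide and scan. Within each slide, 1 row of arrays held all P7 samples and the other all P3 samples, so array row and passage cannot be told apart. Each row held WT 20% O2, WT 3% O2, Ercc1-/- 20% O2 and Ercc1-/- 3% O2 in the same order of columns. Array column therefore cannot be told apart from the combination of genotype and oxygen. The dimmest array was Ercc1-/- P7 20% O2 replicate 2, with a mean log2 signal of 5.80 over the same 57 miRNAs. All 7 mesenchymal marker miRNAs checked were above background on 15 or 16 arrays and none of 7 epithelial markers was on any array, while of 5 blood cell markers miR-223 was above background on 9 arrays, miR-142-3p on 5 and miR-142-5p on 1, with miR-150 and miR-451 on none. The summed scaled signal of the blood list overlapped between passages (14.1 to 97.8 at P7 and 15.96 to 73.4 at P3) and between oxygen levels (14.1 to 73.4 at 20% O2 and 17.3 to 97.8 at 3% O2), and none of these markers' part in the results was tested. Of 5 neural markers miR-129-5p was above background on 5 arrays and miR-9* on 2, and the list's summed signal reached 98.8 at P7, against 21.4 at P3, and 98.8 in Ercc1-/- MEFs, against 21.4 in WT MEFs, with ranges that overlapped at the low end. Of 4 muscle markers miR-206 was above background on 2 arrays, both at P7.

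The 5′ arm miR-34 miRNAs were detected in nearly every culture. miR-34a, miR-34b-5p and miR-34c were each above background on 15 of 16 arrays, the missing array being Ercc1-/- P7 20% O2 replicate 2 in each case. The 3′ arm products were above background on fewer arrays. miR-34c* was above background on 9 arrays, 2 of the 8 P7 arrays and 7 of the 8 P3 arrays. miR-34b-3p was above background on 7 arrays, 2 at P7 and 5 at P3, and 6 of these 7 arrays were on the brighter slide 1. miR-449a was above background on none of the 16 arrays, nor were miR-449b and miR-449c. Of the 6 members, 5 entered the tests, which took miRNAs detected above background in both replicates of any 1 group. miR-34b-3p met this only through Ercc1-/- P3 20% O2, so its values in several other groups lie at or near background. miR-34c* met it only through P3 groups, both of the Ercc1-/- ones and WT P3 3% O2. For these 3′ arm products the passage comparisons below are therefore a description only. In extracts of whole cultures, fewer cells making a miRNA and less of it per cell cannot be told apart.

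**Figure D1:**
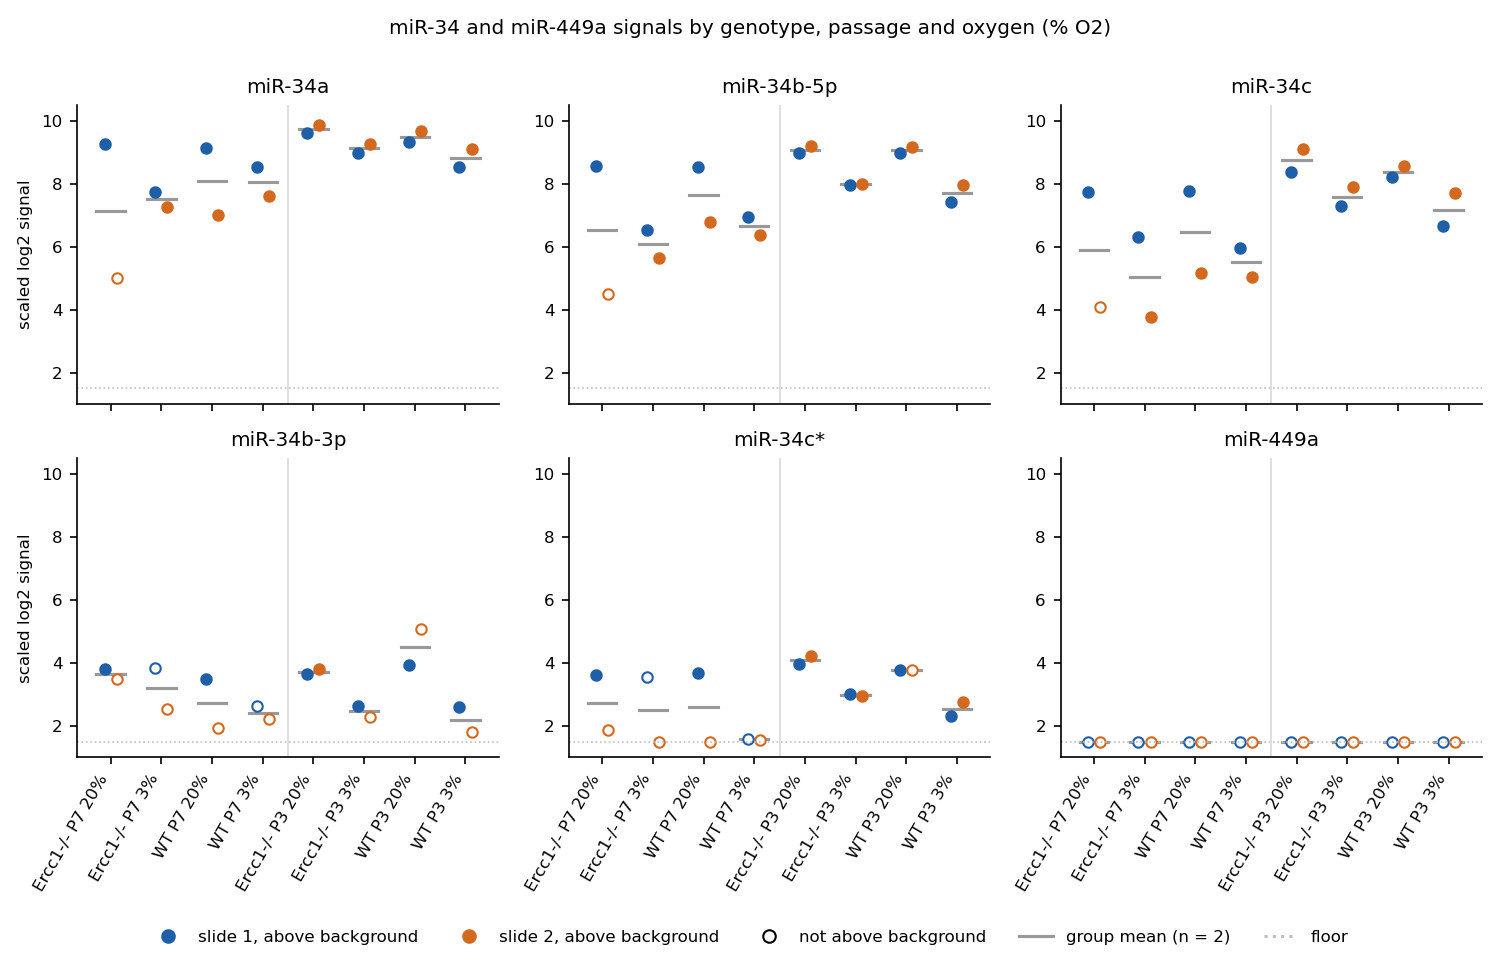
Scaled log2 signal of each member (vertical axis) on every array, by group of Ercc1-/- or WT MEFs, passage and O2 (horizontal axis). Open points are arrays where the miRNA was not above background, colors are slides, bars are group means (n = 2) and the dotted line is the floor. The miR-34a points run between 5.0 and 9.87, with the lowest in Ercc1-/- P7 20% O2.

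Levels below are log2 signals scaled so that the 57 miRNAs above background on all arrays have the same mean on each array. miR-34a, the product of the single-gene locus on chromosome 4, averaged 9.74 ± 0.19 in Ercc1-/- P3 20% O2, 9.51 ± 0.25 in WT P3 20% O2, 9.14 ± 0.21 in Ercc1-/- P3 3% O2 and 8.81 ± 0.41 in WT P3 3% O2 (SD, n = 2 each). The P7 means were lower and had more spread, at 8.08 ± 1.49 in WT 20% O2, 8.07 ± 0.65 in WT 3% O2, 7.50 ± 0.35 in Ercc1-/- 3% O2 and 7.14 ± 3.02 in Ercc1-/- 20% O2 (SD, n = 2 each). Between neighbors in this order, the arrays of WT P3 20% O2 and Ercc1-/- P3 3% O2 did not overlap, and those of every other neighboring pair did. The SD of 3.02 came from 2 replicates that read 9.28 and 5.0.

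miR-34b-5p and miR-34c, the 5′ arm products of the chromosome 9 cluster, put the groups in nearly the same order. miR-34b-5p averaged 9.09 ± 0.15 in Ercc1-/- P3 20% O2 and 9.08 ± 0.13 in WT P3 20% O2, with 7.99 ± 0.02 in Ercc1-/- P3 3% O2 and 7.71 ± 0.39 in WT P3 3% O2 (SD, n = 2 each). At P7 its means were 7.66 ± 1.22 in WT 20% O2, 6.66 ± 0.41 in WT 3% O2, 6.53 ± 2.88 in Ercc1-/- 20% O2 and 6.09 ± 0.62 in Ercc1-/- 3% O2 (SD, n = 2 each). Again the arrays of neighboring groups overlapped at every step but the one between the P3 20% O2 and P3 3% O2 groups. miR-34c had its highest group mean, 8.75 ± 0.52, in Ercc1-/- P3 20% O2 and its lowest, 5.03 ± 1.79, in Ercc1-/- P7 3% O2 (SD, n = 2 each).

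Across oxygen, the averaged fit, which did not pair arrays of the same slide, called no member, and the differences stood out at P3. In P3 MEFs every 20% O2 array read above every 3% O2 array for miR-34a, miR-34b-5p, miR-34c and miR-34c*, a pattern that 14 of the 235 tested miRNAs (5.96%) had. miR-34b-5p read 8.99, 9.19, 8.99 and 9.17 on the 20% O2 arrays of P3 MEFs (Ercc1-/- replicates 1 and 2, then WT replicates 1 and 2), against 7.98, 8.01, 7.43 and 7.98 on the 3% O2 arrays in the same order. The 20% O2 arrays lay close together, whereas the WT replicate 1 array was the lowest of the 3% O2 arrays. miR-34c read 8.38, 9.12, 8.22 and 8.55 at 20% O2, against 7.29, 7.90, 6.67 and 7.70 at 3% O2, again without overlap. miR-34a ran between 9.33 and 9.87 at 20% O2 and between 8.52 and 9.28 at 3% O2, a narrow separation.

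miR-34c*, the 3′ arm product of the miR-34c hairpin, was separated in the same way. It read 3.97, 4.23, 3.78 and 3.78 in P3 20% O2 cells, against 3.00, 2.93, 2.32 and 2.77 in P3 3% O2 cells. The last of the 20% O2 values, from WT replicate 2, was on an array where miR-34c* was not above background. A probe of miR-34c* also lay at the floor on that array, on both WT P3 3% O2 arrays and on Ercc1-/- P3 3% O2 replicate 2. For miR-34b-3p, which entered the tests through a 20% O2 group, the values are given as a description only. They ran between 3.63 and 5.07 in P3 20% O2 cells and between 1.80 and 2.63 in P3 3% O2 cells, and miR-34b-3p was above background on 3 of the 4 arrays at 20% O2 and on 2 of the 4 at 3% O2. Its highest value, 5.07 in WT P3 20% O2 replicate 2, was on an array where it was not above background. At P7, 0 of the 235 tested miRNAs had all 20% O2 arrays above all 3% O2 arrays.

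**Figure D2:**
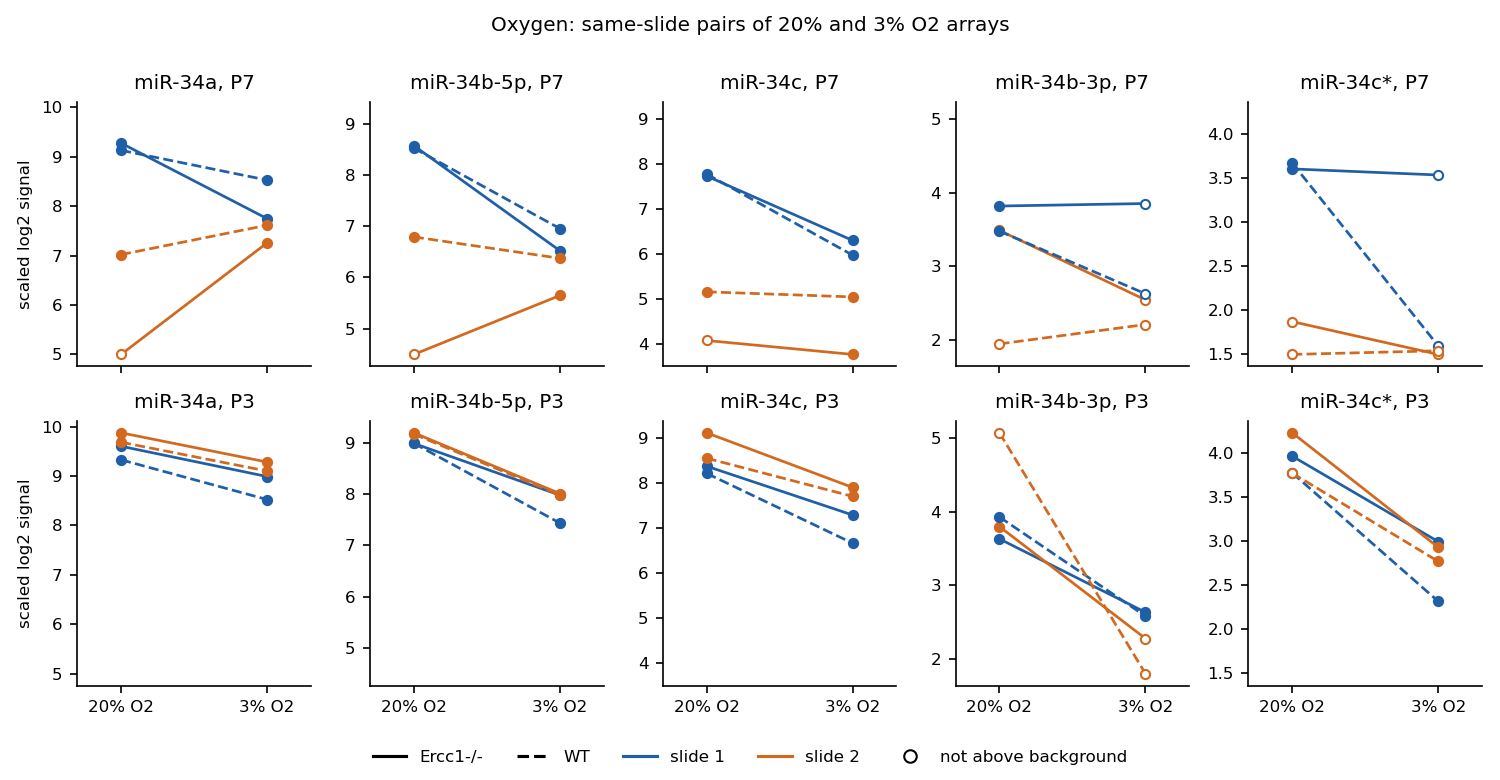
Scaled log2 signal (vertical axis) at 20% and 3% O2 (horizontal axis), 1 column of panels per tested member, with P7 in the upper row and P3 in the lower row; each line joins arrays alike in genotype, passage and slide, solid for Ercc1-/- and dashed for WT, and open points were not above background. All 4 lines of miR-34a, miR-34b-5p, miR-34c and miR-34c* are higher at 20% O2 in the P3 row, and in the P7 row 2 of the 4 miR-34a lines are.

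Set side by side as 8 pairs of arrays on the same slide, alike in genotype and passage, miR-34c was higher at 20% O2 in 8 of 8 pairs, as were 3 of the 235 tested miRNAs (1.28%). miR-34b-5p and miR-34c* were each higher in 7 of 8 pairs, and miR-34a and miR-34b-3p in 6 of 8. The mean pair difference (20% minus 3% O2) of miR-34b-5p was 0.72 at P7 and 1.23 at P3, that of miR-34c was 0.91 and 1.17, and that of miR-34a was -0.18 and 0.65. These passage gaps were not called: the passage by oxygen term passed for 0 of the 5 members and for 0 of the 235 miRNAs by limma, of which 2 had an unadjusted p under 0.05.

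Averaged over genotype and passage in the fit to all 16 arrays (limma, with Benjamini-Hochberg adjustment over the 235 tested miRNAs), 20% minus 3% O2 was 1.08 for miR-34b-3p (SE 0.34, 95% interval 0.33 to 1.83, adjusted p = 0.649), 1.04 for miR-34c (SE 0.61, interval -0.28 to 2.37) and 0.98 for miR-34b-5p (SE 0.52, interval -0.17 to 2.12). It was 0.90 for miR-34c* (SE 0.42, interval -0.02 to 1.83) and 0.23 for miR-34a (SE 0.56, interval -0.99 to 1.45). No member was called and 2 of the 235 tested miRNAs were (0.851%). In order of size, miR-34c, miR-34b-5p and miR-34c* held places 3, 4 and 6 from the highest of 235, and miR-34a place 77. miR-34b-3p held place 1, from values at or near background and after entering through a 20% O2 group. With the matched pairs as a block, miR-34c was called (1.04, adjusted p = 0.0346), among 3 of 235 (1.28%). Calls differed between the passages taken separately. In the 8 P3 arrays alone, miR-34b-5p (1.23) and miR-34c* (1.18) were called at an adjusted p of 0.0270 each, among 5 of 235 called (2.13%), and in the 8 P7 arrays alone no member and 0 of 235 miRNAs were (2 at an unadjusted p under 0.05). The P3 call of miR-34c* includes WT 20% O2 replicate 2, where it was not above background. In slide 1 alone, miR-34b-5p (1.54, adjusted p = 0.0343) and miR-34c (1.47, adjusted p = 0.0176) were called, among 1.28% of all tested miRNAs. In slide 2 alone no member and 0 of 235 miRNAs were called (10 at an unadjusted p under 0.05), with 0.41 for miR-34b-5p, 0.62 for miR-34c and -0.42 for miR-34a. The slide 2 values hold Ercc1-/- P7 20% O2 replicate 2, and without that array the fit to the rest called miR-34b-5p (1.49, adjusted p = 0.0470), among 3 of 235. Without the 4 dimmest arrays, 20% minus 3% O2 was 1.57 for miR-34b-5p and 1.14 for miR-34c*. Those were the slide 2 arrays of WT P3 20% O2, WT P7 20% O2 and both Ercc1-/- P7 groups. Each of these groups kept only its slide 1 array, so that fit partly mixes oxygen with slide.

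Across passage, the 5′ arm miR-34 miRNAs were lower at P7. Averaged over genotype and oxygen, P7 minus P3 was -2.25 for miR-34c (SE 0.61, 95% interval -3.57 to -0.92, adjusted p = 0.0120), -1.73 for miR-34b-5p (SE 0.52, interval -2.88 to -0.59, adjusted p = 0.0169) and -1.60 for miR-34a (SE 0.56, interval -2.82 to -0.38, adjusted p = 0.0297). These 3 of the 5 tested members were called lower, in a comparison where 129 of 235 tested miRNAs (54.9%) were called, 53 higher and 76 lower (32.3%). The median change of all 235 was -0.39. miR-34c held place 23 from the lowest of 235, miR-34b-5p place 42 and miR-34a place 50.

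The values behind these changes overlapped between passages. miR-34c had a lowest, median and highest value of 3.77, 5.57 and 7.78 on the 8 P7 arrays, against 6.67, 8.06 and 9.12 on the 8 P3 arrays. miR-34b-5p had 4.50, 6.66 and 8.57 at P7, against 7.43, 8.50 and 9.19 at P3. miR-34a had 5.0, 7.68 and 9.28 at P7, against 8.52, 9.30 and 9.87 at P3. In each of the 3 the highest P7 value came from slide 1 and lay within the range of the P3 values.

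**Figure D3:**
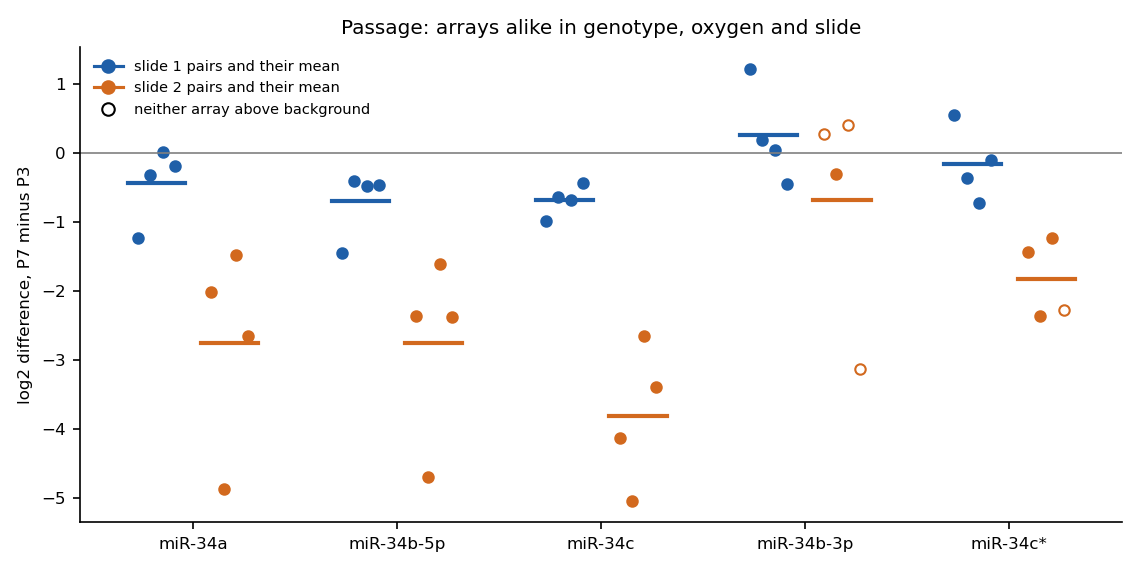
Difference in scaled log2 signal, P7 minus P3 (vertical axis), for each tested member (horizontal axis); a point is a pair of arrays alike in genotype, O2 and slide, a bar is the mean of the 4 pairs of a slide, and open points had neither array above background. The slide 2 means of miR-34a, miR-34b-5p and miR-34c (-2.76, -2.76 and -3.81) lie well below their slide 1 means.

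As pairs on the same slide, alike in genotype and oxygen, miR-34b-5p and miR-34c were lower at P7 in 8 of 8 pairs each, as were 42 of the 235 tested miRNAs (17.9%), and miR-34a was lower in 7 of 8. The size of the difference depended on the slide. On slide 1 the mean P7 minus P3 difference was -0.69 for miR-34c, -0.71 for miR-34b-5p and -0.44 for miR-34a, with a median of -0.11 over all tested miRNAs. On slide 2 it was -3.81, -2.76 and -2.76 for the same miRNAs, with a median of -0.71 over all. In a fit of slide 1 alone no member was called (adjusted p = 0.0999 for miR-34b-5p and miR-34c), where 6 of 235 were (2.55%). In slide 2 alone 4 members were called, where 76.2% of all tested miRNAs were. Over both slides, a block for the matched pair, or for genotype and replicate number together, added miR-34c* to the called members (64.3% of all tested miRNAs called with either), as did one for the replicate number (68.1%). miR-34c*, also called in slide 2 alone, entered the tests only through P3 groups, so its passage calls are a description only.

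Array brightness moved with passage on both slides. The mean unscaled log2 signal of the 57 common miRNAs was 7.91 to 9.29 at P7, against 9.31 to 9.77 at P3, on slide 1, and 5.80 to 7.99 at P7, against 6.98 to 8.65 at P3, on slide 2. Slide 2 held the 4 dimmest arrays, 3 of them P7 arrays. Without these 4, miR-34c (-1.11, adjusted p = 0.0305) and miR-34b-5p (-0.88, adjusted p = 0.0155) were still called lower at P7, at smaller sizes, and miR-34a was not (-0.70, adjusted p = 0.0518), with 40.9% of all tested miRNAs called. The part that array brightness had in the rest of the difference was not tested. The call of miR-34a was lost when any 1 of 9 arrays was left out (both of Ercc1-/- P3 20% O2, both of Ercc1-/- P3 3% O2, and replicate 2 of Ercc1-/- P7 3% O2 and of the 4 WT groups), with adjusted p between 0.0533 and 0.0747, whereas miR-34b-5p and miR-34c kept theirs without each of the 16 arrays in turn. Without Ercc1-/- P7 20% O2 replicate 2 the change of miR-34a was -1.06 and it was still called. Under 9 ways of scaling or reading the signal, the median of all tested miRNAs ran between -1.14 and 0.40, and relative to that median the change ran between -2.0 and -1.36 for miR-34c, between -1.53 and -1.25 for miR-34b-5p and between -1.48 and -0.89 for miR-34a. miR-34c was called under all 9, miR-34b-5p under 7 and miR-34a under 5.

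The 3′ arm products were not called by passage, and both entered the tests only through P3 groups. miR-34c* had an averaged P7 minus P3 change of -1.0 (SE 0.42, adjusted p = 0.0613) and was lower at P7 in 7 of 8 pairs. It was above background on neither WT P7 3% O2 array and on both WT P3 3% O2 arrays. Against the background level its mean was at least 1.47-fold lower in WT P7 3% O2 than in WT P3 3% O2. Ercc1-/- MEFs at 3% O2 had the same detection by passage but gave no such bound. There replicate 1 read 3.54 at P7, against 3.00 and 2.93 on the P3 arrays. miR-34b-3p had a change of -0.22 (SE 0.34, adjusted p = 0.568), was lower in 3 of 8 pairs, and changed sign under other scalings. The 2 probes of miR-34a, of miR-34b-5p and of miR-34c each gave P7 minus P3 changes of like size (-1.47 and -1.65, -1.69 and -1.76, and -2.44 and -2.22), whereas those of miR-34c* gave -0.06 and -1.09 and those of miR-34b-3p 0.09 and -0.46.

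Between genotypes no member was called. Averaged over passage and oxygen, Ercc1-/- minus WT was -0.24 for miR-34a (95% interval -1.46 to 0.98), -0.35 for miR-34b-5p (interval -1.50 to 0.80) and -0.07 for miR-34c (interval -1.39 to 1.26). It was 0.46 for miR-34c* (interval -0.46 to 1.39) and 0.30 for miR-34b-3p (interval -0.45 to 1.05), with adjusted p between 0.933 and 0.993 and 4 of 235 tested miRNAs called (1.7%). These intervals hold changes of more than 1 log2 unit in at least 1 direction for each member. At P3 miR-34a was higher in Ercc1-/- than in WT MEFs in 4 of 4 pairs, by 0.18 to 0.47, and miR-34c in 4 of 4, by 0.16 to 0.63, where 23.4% of all tested miRNAs were higher in 4 of 4. Over these 4 same-slide pairs the mean difference was 0.28 for miR-34a (SD 0.13) and 0.39 for miR-34c (SD 0.24). The replicate SD of miR-34c, a spread between slides, was 0.52 in Ercc1-/- P3 20% O2 and 0.73 in WT P3 3% O2. miR-34c* was higher in Ercc1-/- P3 MEFs in 4 of 4 pairs, miR-34b-5p in 3 of 4 and miR-34b-3p in 2 of 4. At P7 miR-34a and miR-34c were each higher in Ercc1-/- MEFs in 1 of 4 pairs. By slide, the mean difference was 0.03 on slide 1 and -0.50 on slide 2 for miR-34a, 0.04 and -0.74 for miR-34b-5p, and 0.27 and -0.40 for miR-34c. No member was called in the P3 arrays alone (4.26% of all tested miRNAs called), without the 4 dimmest arrays (5.11%) or with the replicate number as a block (2.98%). The passage by genotype term was called for no member and for 0 of 235 miRNAs by limma, of which 11 had an unadjusted p under 0.05.

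**Figure D4:**
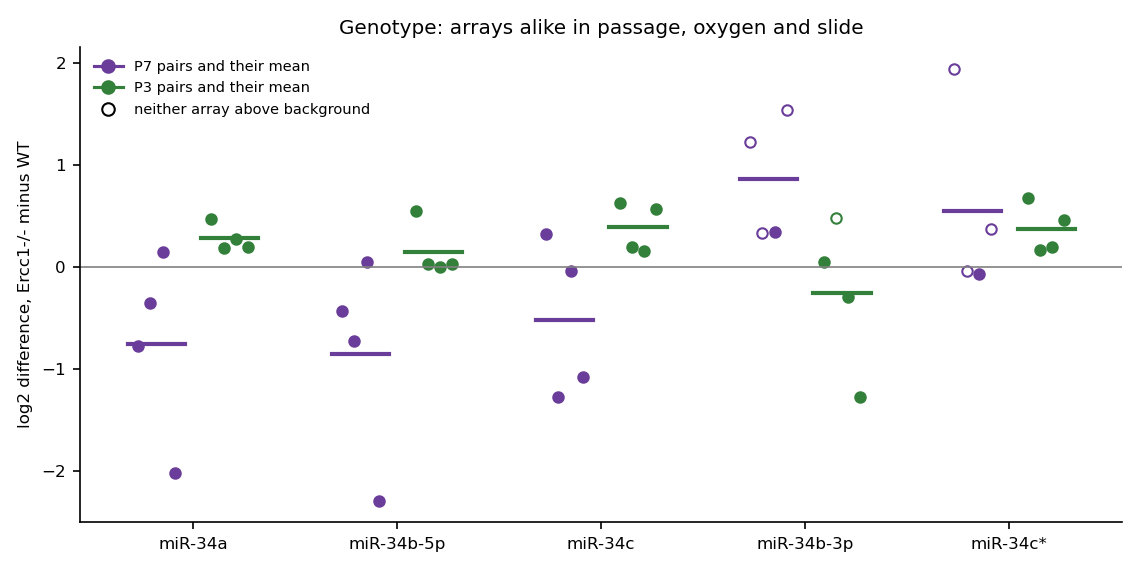
Difference in scaled log2 signal, Ercc1-/- minus WT (vertical axis), for each tested member (horizontal axis); a point is a pair of arrays alike in passage, O2 and slide, a bar is the mean of the 4 pairs of a passage, and open points had neither array above background. The P3 points of miR-34a lie between 0.18 and 0.47, and its P7 points between -2.02 and 0.15.

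Within single conditions, none of the remaining comparisons of 2 groups of 2 arrays called a member. In Ercc1-/- MEFs at 20% O2, P7 minus P3 had its smallest adjusted p, 0.108, for miR-34b-5p, where 1.28% of all tested miRNAs were called. Ercc1-/- P7 20% O2 over WT P3 3% O2, the pair of groups farthest apart in the design, had a smallest adjusted p of 0.171, where 2.55% were called. Ercc1-/- minus WT at P7 20% O2 had 0.426% of all tested miRNAs called. These comparisons rest on the Ercc1-/- P7 20% O2 replicates, which disagreed for each 5′ arm member, at 9.28 and 5.0 for miR-34a, 8.57 and 4.50 for miR-34b-5p, and 7.73 and 4.08 for miR-34c. Without its replicate 1, the brighter of them, 4 members were called lower at P7 than at P3 in Ercc1-/- MEFs at 20% O2, among 180 of 235 called, and miR-34a (-3.08) and miR-34b-5p (-3.16) were called lower in Ercc1-/- than in WT P7 20% O2 MEFs, among 74 of 235. Those calls compare 1 dim array, on which none of the family was above background, with 2.

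miR-449a, the member with the miR-34a seed at the chromosome 13 locus, did not meet the rule for being above background in any condition. Its processed signals before scaling ran between -0.99 and 0.93 on the 8 P7 arrays and between 0.84 and 6.82 on the 8 P3 arrays. One probe had a share of 0.3 of its spots marked well above background on the Ercc1-/- P3 3% O2 replicate 1 array, under the required 0.5, and no fold was formed.

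The profiles of miR-34a, miR-34b-5p, miR-34c and miR-34c* were compared with those of the other tested miRNAs over the 16 arrays. Of the 234 tested miRNAs it was set against, the closest to miR-34b-5p were miR-34c (Pearson r = 0.96), miR-34a (0.95) and miR-21 (0.94), and the closest to miR-34c were miR-34b-5p (0.96), let-7d (0.94) and miR-28 (0.93). miR-34a was closest to miR-151-5p (0.97), miR-15b (0.96) and miR-28 (0.96). For miR-34c* they were miR-34c (0.88), miR-467b (0.87) and miR-669f (0.84). The arrays share brightness and slide, and the median r with all tested miRNAs was 0.55 for miR-34a, 0.49 for miR-34b-5p, 0.50 for miR-34c and 0.36 for miR-34c*.

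**Figure D5:**
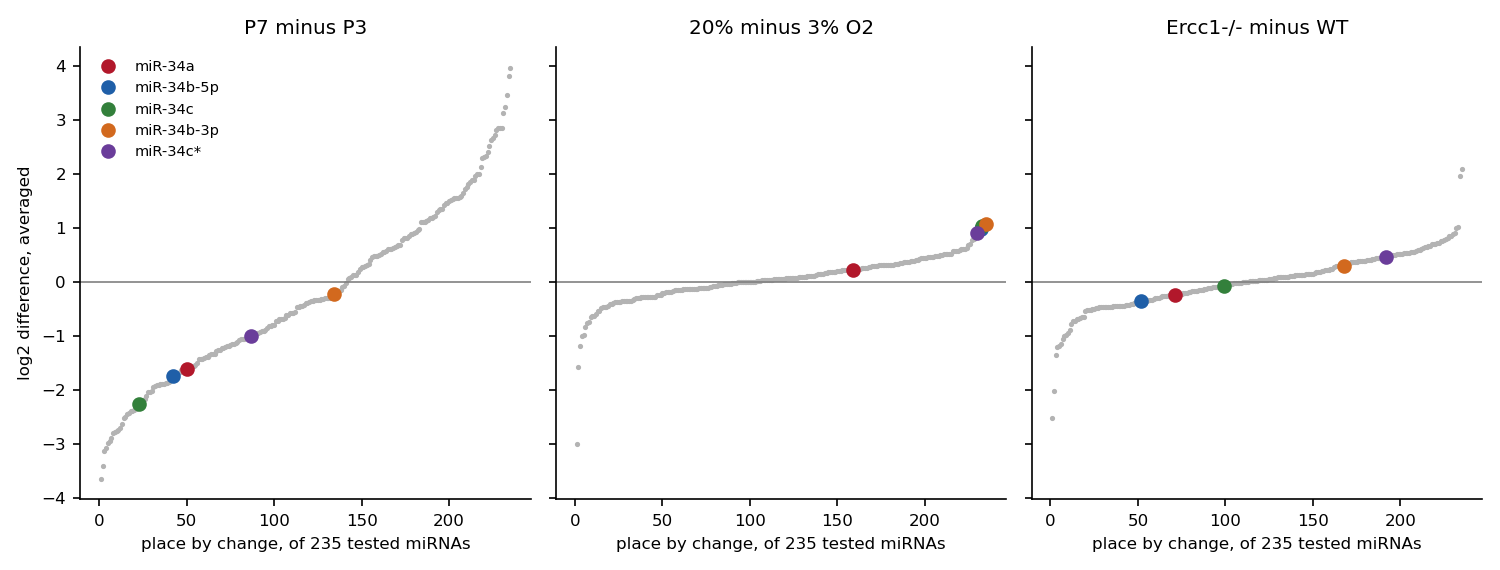
Change of all 235 tested miRNAs in order of size (horizontal axis, place; vertical axis, averaged log2 change) for passage, oxygen and genotype, with the tested members marked. The 5′ arm members lie toward the low end for passage, and miR-34c, miR-34b-5p and miR-34c* lie at the high end for oxygen, beside miR-34b-3p, whose values there lie at or near background.

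Among other miRNAs known to respond to p53, some were called higher and some lower at P7, in the comparison where 54.9% of all tested miRNAs were called. Of 14 further miRNAs on the array described as induced or matured under p53 (the induced list), 9 were tested. At P7 relative to P3, miR-22 (1.47, adjusted p = 0.0120) and miR-145 (1.20, adjusted p = 0.0159) were higher. In the same comparison miR-107 (-1.91, adjusted p = 0.0347) and miR-15a (-1.86, adjusted p = 0.0175) were lower. The median of the 9 was -0.30, against -0.39 for all 235. Of 6 miRNAs of clusters that p53 represses, 5 were tested, and miR-20a, a cell cycle promoting miRNA of the miR-17 to miR-92 cluster, was lower at P7 (-2.01, adjusted p = 0.0201). Between genotypes and between oxygen levels 0 of these 14 tested miRNAs were called. Those of smallest p in the induced list were miR-107 (-0.98), miR-29c (-0.45) and miR-15a (-0.40) for Ercc1-/- minus WT, and miR-29c (0.17), miR-29b (0.26) and miR-145 (0.12) for 20% minus 3% O2. The induced list's median was -0.29 for Ercc1-/- minus WT and 0.07 for 20% minus 3% O2, against 0.02 and 0.05 for all tested miRNAs. The repressed list's median was -0.69 for P7 minus P3, 0.15 for Ercc1-/- minus WT and -0.28 for 20% minus 3% O2.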

How the data were processed

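The authors hybridized total RNA of each culture to 1-color Agilent mouse miRNA arrays and extracted spot intensities with Agilent Feature Extraction (version 10.7.1.1 per the file headers). The deposited intensity used here was the processed, background-subtracted signal of each spot; the software's total signal per miRNA was an alternative. Control and outlier spots were left out, spots were averaged per probe and probes per miRNA, and a miRNA counted as above background where, for at least 1 probe, a share of 0.5 or more of the spots was marked well above background. Scaling gave each array an equal mean log2 intensity across the 57 miRNAs that passed this rule on every array, with a floor of 2.82 (log2 1.50). The fit (limma 3.58.1, R 4.3.3) took the 235 miRNAs that passed it in both replicates of any 1 group, estimated a mean for each group from 16 arrays, and adjusted p-values by Benjamini-Hochberg separately for 19 comparisons. A call is an adjusted p under 0.05. The p-values measure only the spread between these arrays. On data simulated from these arrays for the averaged passage comparison (235 miRNAs), 29.3% of 2-fold and 87% of 4-fold changes were called. The simulated noise was independent between arrays, without the deviations that arrays of a slide share here, so the rates may not hold for these data.

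The members and gene lists were chosen with earlier results of these data known. The rule for named miRNAs took all members, the 3 most like each in profile, and, from the p53 lists, those called or, with none called, those of smallest p. Alternatives were other scalings, filters, floors and background corrections (normexp with an offset of 50), the deposited value table, the replicate number as a block, genotype and replicate number together as a random block, the methods' unequal-variance test with its fold limit, and leaving out each array. Fits by passage, by slide, by matched pair and without the 4 dimmest arrays were chosen after seeing the data.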

Additional observations from a re-analysis of the deposited data

Results flagged for a closer look

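miR-449a had a signal outside the measurements used above. The software's own total signal for miR-449a was 177 on the Ercc1-/- P3 3% O2 replicate 1 array and was marked as detected there, on that array alone of 16. The probe-level totals of the same array summed to 8.96, and none of its probes met the rule for being above background. The total also exceeded the probe sum by more than 2-fold for miR-34b-3p on 3 of its 10 detected arrays and for miR-34c* on 5 of 10, for miR-34c on 2 of 15, for miR-34a on 1 of 16 and for miR-34b-5p on 0 of 15. The cause was not tested.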

How the results depend on the processing

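The p-values rest on 2 arrays per group, and array signal over background limits miR-34b-3p, miR-34c* and miR-449a most; the filter for miRNAs above background on all arrays left no member to test. For passage, the 3 members called became 0 with no filter, 1 with no scaling and 0 in slide 1 alone, and the 129 called of all 235 tested miRNAs became 35 of 57 with the all-array filter, 55 of 611 with no filter, 44 with no scaling (6 higher and 38 lower), 34 with normexp (13 higher and 21 lower), 6 in slide 1 alone and 72 with the software's total signal. With the 75th percentile over the common miRNAs the split was 64 higher and 60 lower. Samples with the same replicate number deviated together within passages (median correlation 0.61 at P3 and 0.81 at P7) but not between them (0.03). The main fit did not take the numbers as pairing the samples. The value between passages bears on the passage comparison, whereas oxygen and genotype are compared within a passage. With matched pairs as a block, the oxygen SE of miR-34c was 0.24, smaller than in the main fit. With the replicate number as a block, 4 members and 160 of all tested miRNAs were called by passage (miR-34c* added), 0 members by oxygen and by genotype, and 7 of all by genotype. The added miR-34c* entered the tests only through P3 groups. For oxygen, the count of 0 members became 2 in P3 arrays alone, 1 (miR-34c, adjusted p = 0.0346) with matched pairs as a block and 2 (miR-34b-5p and miR-34c) in slide 1 alone. The 2 of all tested miRNAs became 5 in P3 arrays alone and 0 in P7 arrays alone or slide 2 alone. They became 1 with the software's detection call, the all-array filter, a floor multiplied by 0.1 or the mean over all miRNAs. The methods' test, no filter, no scaling, normexp and the total signal also gave 1. For genotype, the 4 of all became 10 in P3 arrays alone, 0 in P7 arrays alone, either slide alone, with no scaling, normexp or the total signal, 2 of 57 with the all-array filter, 1 with the methods' test, 8 of 611 with no filter and 12 without the dimmest arrays.

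Without the 4 dimmest arrays, 1 member was called by passage in WT 3% O2 MEFs (52 of all 235), where each group kept 2 arrays. Passage in Ercc1-/- 3% O2 MEFs, genotype at P7 3% O2 and oxygen in WT P7 MEFs then set 1 slide 1 array against 2 arrays of both slides. Those comparisons mix the factor with slide, and the averaged comparisons of that fit do so in part. Their calls are not counted. Signs turned as follows. Ercc1-/- minus WT in P3 arrays alone, normexp, slide 1 alone and without the dimmest arrays was 0.28, 0.052, 0.026 and 0.14 for miR-34a, 0.15, 0.063, 0.039 and 0.073 for miR-34b-5p, and 0.39, 0.31, 0.27 and 0.42 for miR-34c; with the total signal it was 0.072 for miR-34a and -0.81 for miR-34b-3p, which was -0.26 in P3 arrays alone. 20% minus 3% O2 of miR-34a was -0.18 in P7 arrays alone, -0.42 in slide 2 alone, -0.026 with the mean over all miRNAs, -0.0099 with no scaling and -0.0045 with quantile scaling, and that of miR-34c* was -0.96 with the total signal. P7 minus P3 of miR-34b-3p was 0.12 with the 75th percentile over common miRNAs, 0.54 with normexp, 0.25 in slide 1 alone, 0.34 with the total signal and 0.32 without the dimmest arrays, and that of miR-34c* was 0.48 with normexp. miR-449a was detected on 1 array by the software's call. The cause was not tested.

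Leaving out 1 array at a time gave 2 to 4 members called by passage and 99 to 193 of all, 0 to 1 member by oxygen (miR-34b-5p, without Ercc1-/- P7 20% O2 replicate 2) and 1 to 6 of all, and 0 members by genotype and 3 to 19 of all. Comparisons with the Ercc1-/- P7 20% O2 group turned on which of its replicates was left out. Over WT P3 3% O2 and without replicate 1, its change was -3.81 for miR-34a, -3.21 for miR-34b-5p and -3.11 for miR-34c. Without replicate 2 it was 0.47, 0.86 and 0.55. Each of these compares 1 array with 2. Averaged changes ran between -0.77 and 0.30 for miR-34a by genotype and between -0.30 and 0.77 by oxygen, between -0.86 and 0.16 for miR-34b-5p and between -0.52 and 0.39 for miR-34c by genotype.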
